A study of Homo sapiens with 6 samples.

Results

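Genes with a ZNF symbol mostly code for zinc-finger proteins, and 115 of them were expressed at a mean of at least 3 RPKM in HK-2 cells. HK-2 is an established line of human tubule epithelium, immortalised from the proximal part of the nephron. RPKM are read numbers divided by gene length and by library size. The members were chosen by name, as ZNF followed by a number and at most 1 letter, and on their measured mean over all 6 libraries, so that their level is a description and not a finding. The table listed 526 such symbols, and the other 411 had a lower mean. The cells had been transfected with an empty vector or with a plasmid that overexpresses circAASS, a circular RNA named after the AASS gene, and are called vector cells and circAASS cells below. Each group had 3 libraries. Cells of both groups were kept at 1% oxygen for 24 h and reoxygenated for 12 h. There were no libraries from cells kept at normal oxygen among those analysed here, and nothing in the labels says that the repeats were separate cultures, so that p-values reflect the spread of these libraries alone, which may be technical. The circular RNA has no row of its own in the table, and its overexpression could not be checked from these values.

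Most human zinc-finger proteins of this name carry an array of C2H2 fingers, each of which can read a few bases of DNA. Many also carry a KRAB domain at the N terminus, which binds the corepressor TRIM28. TRIM28 brings the histone methyltransferase SETDB1 and heterochromatin proteins, and this route silences transposable elements and some genes. KRAB zinc-finger genes lie in large clusters, above all on chromosome 19, and their messages are commonly of low abundance. Other members have no KRAB domain and act as promoter activators, bind RNA or serve ribosome assembly and translation.

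Of the 115 members, 19 were higher and 27 were lower in circAASS cells at an adjusted p under 0.05 (limma on log2(RPKM + 0.1), Benjamini-Hochberg over 19352 tested genes), and 69 did not pass. Among all tested genes, 32.4% were called in either direction, 16.4% higher and 16.0% lower. The members' shares were 16.5% higher and 23.5% lower. Of the tested genes at or above 3 RPKM, 26.9% were higher and 15.5% lower. The median log2 fold change of the members was 0.00, beside 0.07 in all tested genes at or above 3 RPKM and -0.01 in all tested genes. In 68 members the 3 scaled values of a group did not overlap those of the other group (59.1%), compared with 47.9% of all tested genes and 57.5% of those at or above 3 RPKM. Scaling to library size alone turned 19 higher and 27 lower into 11 higher and 35 lower, and moved the median of the members to -0.08, as it did that of all tested genes. With that scaling, 1550 of the 8769 tested genes at or above 3 RPKM were higher and 1903 lower. Of all 19352 tested genes, 2158 were then higher and 4022 lower, so the shift toward lower calls was not particular to the members.

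Most of the calls were of small size. Of the 46 called members, 7 differed by at least 1.5-fold, 2 of them higher and 5 lower. This is 6.1% of the members, beside 11.5% of all tested genes, which include those below 3 RPKM. The median absolute log2 fold change was 0.19 in the members and also 0.19 in the tested genes at or above 3 RPKM. In all tested genes it was 0.23. None of the members differed by as much as 2-fold. The smallest called difference was 0.19 on the log2 scale. When each library was left out in turn, 22 of the 46 stayed called every time, 9 higher and 13 lower. The median within-group coefficient of variation of a member was 5.2% in vector cells and 5.8% in circAASS cells. Fold changes are on the log2(RPKM + 0.1) scale after trimmed-mean scaling, whereas the values by library below are the deposited RPKM.

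Libraries held 45148425 to 52470055 counted reads in vector cells and 47384880 to 58179564 in circAASS cells. A member had between 200 and 14604 reads in a library. Together the members took 0.462% to 0.469% of the reads in vector cells and 0.438% to 0.449% in circAASS cells. Mitochondrial genes took 8.86% to 9.03% and 9.09% to 10.05% of the reads. RN7SK, a small nuclear RNA without a poly(A) tail, had 44.7, 34.1 and 37.0 RPKM in vector cells and 55.6, 135 and 190 in circAASS cells, so that the libraries of circAASS repeats 2 and 3 stood apart in it. Its part in the results on the members was not tested. Without circAASS repeat 2 there were 14 members higher and 24 lower, and without repeat 3 there were 13 higher and 17 lower. Of 17 markers of tubule epithelium, 10 had a mean of at least 1 RPKM, among them the keratins KRT8, KRT18 and KRT19, EPCAM and the kidney factors PAX8 and LHX1. The brush-border and apical genes ANPEP, LRP2, CUBN, SLC34A1 and AQP1, as well as CDH1 and PAX2, were under 1 RPKM, as were the endothelial markers PECAM1, CDH5 and VWF, the leukocyte marker PTPRC and the fibroblast markers COL3A1, PDGFRB and DCN. COL1A1 had a mean of 1.20 RPKM in vector cells and 1.09 in circAASS cells, and CD68, a lysosomal protein abundant in macrophages, of 104 and 88.9 RPKM. The summed tubule markers were 397 to 414 RPKM in vector cells and 438 to 482 in circAASS cells. The markers did not move together. Of the 12 tested, 4 were higher, 4 lower and 4 did not pass. KRT8 rose from a mean of 127 to 149 RPKM, KRT18 from 79.3 to 107 and CDH2 from 34.6 to 44.6, and PAX8 rose by 0.84 on the log2 scale. CDH6, a kidney cadherin, fell from 13.5 to 4.89 RPKM (log2 fold change -1.37), and LHX1, GGT1 and EPCAM fell by 0.31, 0.30 and 0.20 on the log2 scale. Their part in the results on the members was not tested. In bulk RNA, fewer cells of a type and less RNA per cell cannot be told apart.

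The promoters of 4 members that moved strongly in different directions are shown with the base letters of known promoter elements in capitals. ZNF697 and ZNF143 had the largest rises, ZNF160 the largest fall, and ZNF608 the largest fall among members above 10 RPKM. The letters searched, on both strands, were those of the CCAAT box, the GC box with GGGCGG, the cAMP response element with TGACGTCA, the site of ETS factors with ACTTCCGG, that of NRF1 with GCGCATGC, the core of a ZNF143 element with ACTACAATT, that of E2F with TTTGGCGC and that of YY1 with AAGATGG. Matches of different elements may overlap. Each run is the 250 bases before the start of the gene in RefSeq (GRCh38.p14), 5′ to 3′ in the direction of transcription.
ZNF697, chr1:119648267-119648516, minus strand: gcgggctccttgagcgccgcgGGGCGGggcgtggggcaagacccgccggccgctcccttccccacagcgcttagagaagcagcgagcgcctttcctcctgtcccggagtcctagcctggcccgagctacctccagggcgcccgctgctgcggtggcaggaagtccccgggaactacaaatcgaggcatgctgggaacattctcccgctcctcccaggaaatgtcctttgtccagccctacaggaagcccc
ZNF143, chr11:9460762-9461011, plus strand: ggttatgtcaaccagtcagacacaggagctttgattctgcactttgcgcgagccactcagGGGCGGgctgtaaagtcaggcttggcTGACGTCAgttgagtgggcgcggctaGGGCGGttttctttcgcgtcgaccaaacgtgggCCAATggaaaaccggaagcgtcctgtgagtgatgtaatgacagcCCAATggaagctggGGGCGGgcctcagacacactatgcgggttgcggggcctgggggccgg
ZNF160, chr19:53103423-53103672, minus strand: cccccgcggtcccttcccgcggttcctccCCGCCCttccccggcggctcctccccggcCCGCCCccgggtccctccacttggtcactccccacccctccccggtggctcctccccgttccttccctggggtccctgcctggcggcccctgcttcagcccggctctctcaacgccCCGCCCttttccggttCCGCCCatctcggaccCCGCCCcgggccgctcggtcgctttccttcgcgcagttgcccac
ZNF608, chr5:124748825-124749074, minus strand: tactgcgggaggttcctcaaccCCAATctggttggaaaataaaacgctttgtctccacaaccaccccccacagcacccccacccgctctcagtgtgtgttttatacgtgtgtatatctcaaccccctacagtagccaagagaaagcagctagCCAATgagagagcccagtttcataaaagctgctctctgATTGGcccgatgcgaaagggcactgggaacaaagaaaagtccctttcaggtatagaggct

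The 4 windows differ in base composition, with 68.0% G and C in ZNF697, 60.0% in ZNF143, 75.6% in ZNF160 and 50.4% in ZNF608. ZNF143 held the palindromic cAMP response element, 3 GC boxes and 2 CCAAT boxes. ZNF160 held 5 GC boxes and no CCAAT box, and ZNF608 held 3 CCAAT boxes and no GC box. Promoters of 99 of the 115 members were in the RefSeq table, of which 19 were called higher and 21 lower. A GC box was found in 65.7% of the 99 members, and in 42.3% of all 27305 promoters of the same length. It was in 68.4% of the members called higher, in 66.7% of those called lower and in 64.4% of the rest. A CCAAT box was in 42.1%, 42.9% and 35.6% of these groups and in 33.0% of all promoters. The ETS letters were in 16.2% of the member promoters and in 3.6% of all promoters, and in 15.8% of members called higher, 9.5% of those called lower and 18.6% of the rest. Thus GC boxes and CCAAT boxes were about as frequent in the promoters of rising and of falling members. The NRF1 letters were in 4 of 21 members called lower (ZNF33A, ZNF33B, ZNF84 and ZNF415) and in 1 of 19 called higher, with 8.1% in all member promoters and 2.8% in all promoters. The cAMP response element was in 4 member promoters, those of ZNF143, ZNF330, ZNF511 and ZNF593, of which ZNF143 was called. The E2F letters were in 1 member promoter and the YY1 letters in 2.

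The core of the ZNF143 element was found in 3 member promoters, or 3.0%, beside 0.4% of all promoters. All 3 belonged to members called higher, which made up 19 of the 99 members with a promoter. How many of the 97 promoters with these letters belong to genes called higher was not counted. The 3 are shown as 60 bases around the match, which is in capitals. ZNF143 itself rose, and a link between its rise and these genes was not tested.
ZNF286A, chr17:15699638-15699697, plus strand: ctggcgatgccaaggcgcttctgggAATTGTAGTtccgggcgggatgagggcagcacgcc
ZNF317, chr19:9140292-9140351, plus strand: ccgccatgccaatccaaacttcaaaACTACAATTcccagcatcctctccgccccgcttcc
ZNF277, chr7:112206473-112206532, plus strand: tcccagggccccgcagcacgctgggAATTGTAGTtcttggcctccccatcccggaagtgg
The match began 89 bases before the start of ZNF286A, 80 before that of ZNF317 and 197 before that of ZNF277. It lay on the strand shown in ZNF317 and on the other strand in ZNF286A and ZNF277. The log2 fold changes of these genes were 0.33, 0.23 and 0.21. A match of letters is a description and not a site, and these 3 genes were singled out after their values were seen. Stretches of 100 bases shared with other genes made up 57.7% of the ZNF286A transcript, so its reads are uncertain. With scaling to library size alone, ZNF317 and ZNF277 were not called. When each library was left out in turn, ZNF277 lost its call in 5 fits, ZNF317 in 3 and ZNF286A in 1.

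Among the promoter activators, ZNF143 rose and its paralogue ZNF76 fell. ZNF143 binds promoters of small nuclear RNA genes and of many housekeeping genes and activates them. It lies at chromosome 11, 9460319 to 9528524 (GENCODE 29, GRCh38), with the RefSeq start used above inside this span. Its level was 4.99, 4.88 and 5.19 RPKM in vector cells and 8.92, 8.75 and 8.71 RPKM in circAASS cells. Each circAASS library was well above each vector library, and the spread within a group was small. The rise was 0.87 on the log2 scale (SE 0.06, adjusted p = 0.000154), or 1.83-fold. ZNF76, the closest relative of ZNF143, had a mean of 2.01 RPKM and is therefore not a member. It had 2.66, 2.74 and 2.66 RPKM in vector cells and 1.31, 1.07 and 1.64 in circAASS cells, again without overlap. It fell by 0.90 on the log2 scale (SE 0.14, limma adjusted p = 0.00312). ZNF148, ZNF281 and ZNF384, which bind GC-rich or A-rich promoter elements, did not pass. Their log2 fold changes were 0.21 (adjusted p = 0.0760), 0.08 (0.255) and 0.03 (0.768, limma).

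**Figure D1:**
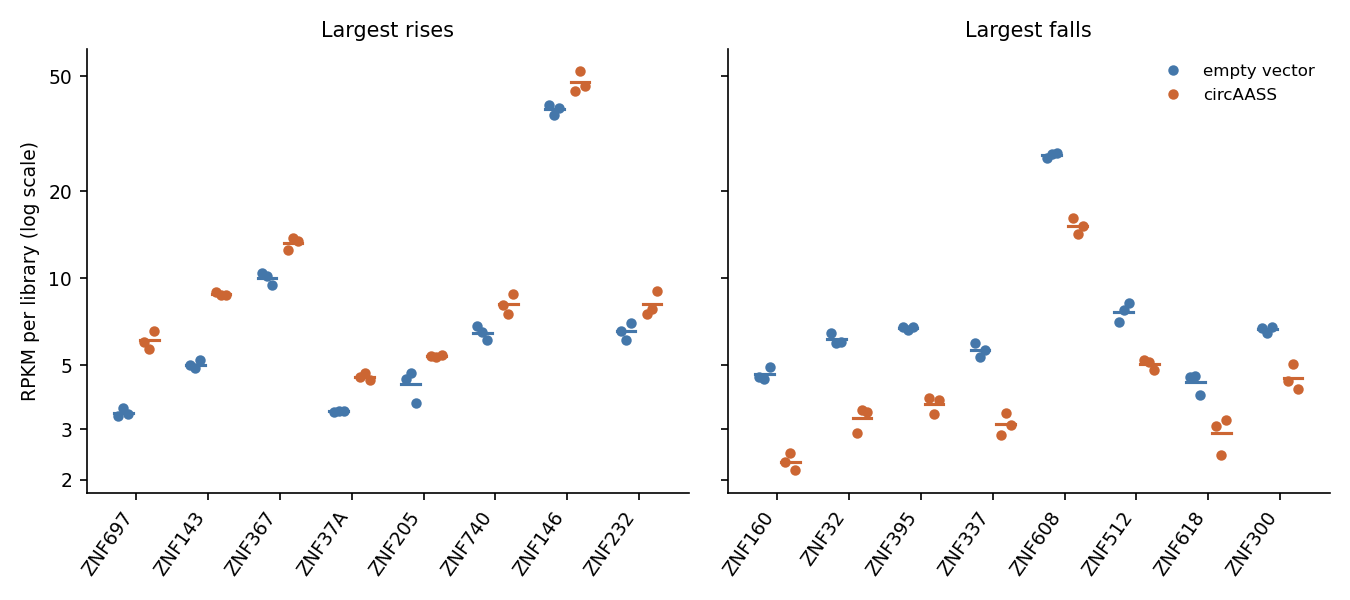
Deposited RPKM on a log axis for the 8 called members that rose most and the 8 that fell most, all with groups that did not overlap. Each point is 1 library and each bar the mean of 3, in blue for empty vector and in orange for circAASS. ZNF143 lies at 4.88 to 5.19 and 8.71 to 8.92 RPKM, and ZNF608 at 26.0 to 27.1 and 14.2 to 16.1 RPKM.

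ZNF697 had the largest rise of a member. This C2H2 protein with 11 fingers lies at chromosome 1, 119619422 to 119647773. Its level was 3.33, 3.54 and 3.38 RPKM in vector cells and 6.01, 5.66 and 6.58 RPKM in circAASS cells. The groups were far apart, with a log2 fold change of 0.89 (SE 0.07, adjusted p = 0.000333). The other 6 of the 8 largest rises were between 0.38 and 0.48. ZNF367, a 2-finger protein, had 10.4, 10.2 and 9.50 RPKM in vector cells and 12.5, 13.8 and 13.4 in circAASS cells. ZNF146, which consists almost wholly of its 10 fingers, had 39.6, 36.8 and 38.7 RPKM and 44.6, 52.2 and 46.2 RPKM. It was the second most abundant member, so its rise of 0.39 was large in RPKM. ZNF37A, a KRAB protein, had 3.44, 3.46 and 3.46 RPKM and 4.54, 4.69 and 4.43 RPKM. ZNF232, a SCAN-domain protein, had 6.56, 6.12 and 7.01 RPKM and 7.54, 7.84 and 9.03 RPKM. ZNF740 rose by 0.41. Other genes cover 22.0% of its exon bases, mainly the antisense gene ITGB7, whose level was at most 0.0893 RPKM in the 6 libraries. ZNF205, a KRAB gene, had 4.47, 4.71 and 3.68 RPKM and 5.37, 5.34 and 5.43 RPKM. Its adjusted p of 0.020 became 0.0534 when 1 library was left out.

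The falls reached the same size as the rises and were more numerous past 1.5-fold. ZNF160, a KRAB protein with 20 fingers described as a repressor of the TLR4 gene, lies at chromosome 19, 53066606 to 53103436. It had 4.53, 4.49 and 4.91 RPKM in vector cells and 2.31, 2.47 and 2.17 RPKM in circAASS cells. The 3 circAASS libraries lay close together, far under the vector libraries (log2 fold change -0.90, SE 0.08, adjusted p = 0.000467). ZNF608, the paralogue of ZNF609, lies at chromosome 5, 124636913 to 124748807. Its level was 26.0, 26.9 and 27.1 RPKM in vector cells and 16.1, 14.2 and 15.1 RPKM in circAASS cells. The difference of the group means, 26.7 ± 0.578 and 15.1 ± 0.915 RPKM (SD, n = 3), was larger in RPKM than that of any other member (log2 fold change -0.74, SE 0.06, adjusted p = 0.000370). No other gene of GENCODE 29 overlaps the exons of ZNF160 or ZNF608. ZNF300, a KRAB protein, had 6.71, 6.43 and 6.78 RPKM and 4.40, 5.03 and 4.12 RPKM, with a log2 fold change of -0.47. ZNF618 had 4.56, 4.58 and 3.94 RPKM and 3.08, 2.44 and 3.22 RPKM, and its adjusted p rose from 0.0178 to as much as 0.0626 when 1 library was left out.

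Of the 8 largest falls, 4 were in genes whose exons are shared with another gene, and whether the counting used strand is not given in the sources used here. ZNF32 (chromosome 10, 43643859 to 43648856) had 6.48, 5.94 and 6.0 RPKM in vector cells and 2.90, 3.48 and 3.45 RPKM in circAASS cells. Other genes, mainly the antisense gene ZNF32-AS2, cover 38.6% of its exon bases, and ZNF32-AS2 fell from 4.16 ± 0.908 to 1.91 ± 0.254 RPKM. ZNF337, a KRAB gene, had 5.96, 5.32 and 5.65 RPKM and 2.87, 3.41 and 3.11 RPKM. Its antisense gene ZNF337-AS1 fell from 3.83 ± 0.167 to 2.30 ± 0.189 RPKM, and 73.8% of the ZNF337 exon bases are covered by other genes. ZNF395, a factor induced by hypoxia that activates interferon-stimulated genes, had 6.79, 6.59 and 6.75 RPKM and 3.83, 3.39 and 3.79 RPKM. FBXO16, which runs on the same strand and shares exons with ZNF395, fell from 3.33 ± 0.0873 to 1.71 ± 0.183 RPKM, and 34.9% of the ZNF395 exon bases are covered by other genes. ZNF512 had 7.06, 7.73 and 8.18 RPKM and 5.19, 5.12 and 4.79 RPKM, with 31.6% of its exon bases covered. In ZNF32, ZNF337 and ZNF395 the member and its partner thus fell together. Which gene the reads on their shared exon bases came from cannot be told from these values. The log2 fold changes of ZNF32, ZNF337, ZNF395 and ZNF512 were -0.81, -0.76, -0.78 and -0.52. Leaving out all 23 members with 20% or more of their exon bases covered left 16 higher and 22 lower of 92.

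Of the 6 members with the highest mean level, ZNF146 and ZNF622 rose, ZNF608 fell and the other 3 did not pass. ZNF622, which takes part in the maturation of the large ribosomal subunit, was at 40.6, 42.4 and 44.5 RPKM in vector cells and 44.8, 50.6 and 44.7 RPKM in circAASS cells. The groups lay close together, and its log2 fold change of 0.21 passed narrowly (adjusted p = 0.0414) and did not pass with scaling to library size alone. ZNF664 was at 36.7, 34.0 and 34.5 RPKM and 36.3, 34.5 and 36.7 RPKM. ZNF330, a nucleolar protein, was at 32.4, 31.5 and 33.6 RPKM and 34.4, 32.7 and 28.8 RPKM. ZNF768 was at 22.8, 22.6 and 20.3 RPKM and 22.8, 16.5 and 20.6 RPKM. In ZNF664, ZNF330 and ZNF768 the groups overlapped, and their log2 fold changes of 0.11, 0.05 and -0.06 did not pass. The median member had a mean of 4.75 RPKM, per length of the gene.

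Of 12 listed genes that act on RNA, ribosomes or translation, 10 were members. Of the 10, 4 rose, 1 fell and 5 did not pass, and the median of the 10 was 0.15 on the log2 scale. The shares of all tested genes at or above 3 RPKM were 26.9% higher and 15.5% lower, with a median of 0.07. ZNF598, the ubiquitin ligase that detects collided ribosomes, had 8.33, 8.27 and 7.75 RPKM in vector cells and 8.35, 8.76 and 9.35 RPKM in circAASS cells. ZNF326, a part of a complex that links transcription elongation to splicing, had 19.9, 18.6 and 19.5 RPKM and 21.7, 22.2 and 20.3 RPKM. ZNF207, which also binds the checkpoint protein BUB3, had 8.75, 9.04 and 8.87 RPKM and 9.76, 10.1 and 9.76 RPKM. These 3 rises were of 0.19, 0.22 and 0.23 on the log2 scale, and neither they nor that of ZNF622 were called with scaling to library size alone. ZNF830, found in the spliceosome, was the member of the group that fell. It had 21.6, 20.2 and 21.1 RPKM and 17.0, 18.5 and 16.7 RPKM, without overlap, and its log2 fold change was -0.19 (adjusted p = 0.0475). With each library left out in turn, ZNF598 lost its call in all 6 fits, ZNF830 and ZNF622 in 5, ZNF326 in 4 and ZNF207 in 1. ZNF106, ZNF638, ZNF346, ZNF330 and ZNF593 did not pass, with log2 fold changes between -0.11 and 0.21. ZNF593, a factor of ribosome assembly, was the least even of them, with 7.89, 6.47 and 5.45 RPKM and 5.75, 6.79 and 7.68 RPKM, and another gene lies antisense to all of its exon bases.

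Of 7 listed factors of development and cancer, 5 were tested, and ZNF217 was the member. Of the 5, 1 was higher, 1 lower and 3 did not pass, beside 16.4% higher and 16.0% lower in all tested genes. The rise was that of ZNF503, below 3 RPKM, from 2.47 ± 0.247 to 2.99 ± 0.162 RPKM (log2 fold change 0.35, limma adjusted p = 0.0308). Its call was lost without 4 of the 6 libraries in turn. ZNF217, an oncogene product that binds corepressors, had 10.7, 11.9 and 11.8 RPKM in vector cells and 9.12, 9.69 and 9.20 RPKM in circAASS cells. Its log2 fold change was -0.22 (adjusted p = 0.0292), and leaving out 1 library undid the call for 4 of the 6 libraries. Of 9 listed KRAB proteins with a known role, ZNF282 was the member, and its groups overlapped (5.68, 6.56 and 6.34 RPKM, and 6.03, 5.99 and 6.48 RPKM). The other 8 of these KRAB genes were below 3 RPKM. Of all 9, 2 fell (22.2%) and 7 did not pass, beside 24.3% lower and 2.2% higher among all tested ZNF genes below 3 RPKM. ZNF268 fell from 1.97 ± 0.143 to 1.28 ± 0.112 RPKM and ZNF91, a silencer of SVA retroelements, from 1.40 ± 0.134 to 0.946 ± 0.129 RPKM, a call lost without 5 of the 6 libraries in turn. ZNF592, ZNF687 and ZNF532, which form a chromatin complex, were also below 3 RPKM, and ZNF532 fell from 2.40 ± 0.175 to 1.54 ± 0.108 RPKM (log2 fold change -0.53, limma adjusted p = 0.00463). ZNF592 and ZNF687 did not pass, with log2 fold changes of 0.05 and 0.06.

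**Figure D2:**
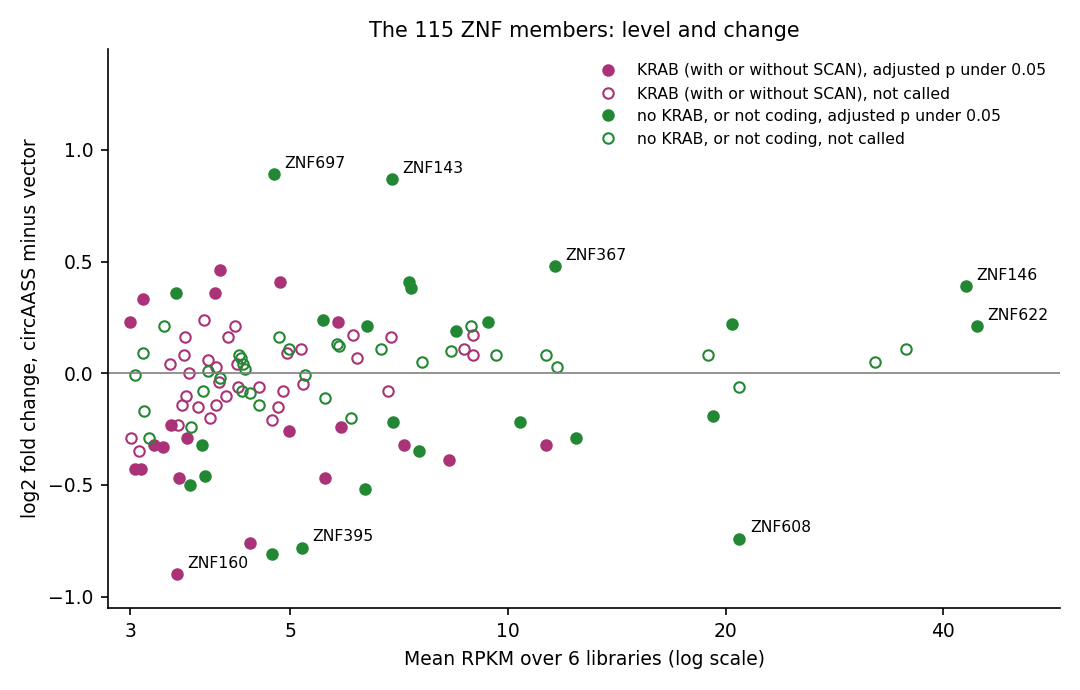
Log2 fold change of each of the 115 members against its mean RPKM over 6 libraries on a log axis. Filled points were called and open points were not, in purple for proteins with a KRAB domain and in green for the rest. ZNF697 and ZNF143 stand above and ZNF160, ZNF395 and ZNF608 below the band in which most members lie.

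By their domains, 56 members code for proteins with a KRAB domain, 4 of them with a SCAN domain as well. The domains and fingers were read from the longest open reading frames of the transcripts. The 53 members with C2H2 fingers and neither domain had a median of 5 fingers, and the 52 with KRAB alone a median of 12.5. Among all 56 KRAB members, 6 were higher (10.7%) and 15 lower (26.8%), with a median log2 fold change of -0.07. Among the 57 coding members without KRAB, 13 were higher (22.8%) and 12 lower (21.1%), with a median of 0.04. Of all tested genes at or above 3 RPKM, 26.9% were higher and 15.5% lower. From 3 to 5 RPKM, where the median KRAB member lies, 17.8% of all tested genes were higher and 18.5% lower. The KRAB members rising were ZNF37A, ZNF205, ZNF267, ZNF286A, ZNF317 and ZNF41. The falls included ZNF84, ZNF33A, ZNF777 and ZNF226 beside ZNF160, ZNF337 and ZNF300. Among the 15 falls are ZNF160, ZNF211, ZNF226, ZNF331, ZNF417 and ZNF649, whose means in circAASS cells were under 3 RPKM. They are members only through their vector level. ZNF33A and ZNF33B, paralogues on chromosome 10 with 16 fingers each, fell by 0.32 and 0.29 on the log2 scale. Leaving out 1 library undid the call of ZNF33B for 4 of the 6 libraries, that of ZNF41 for all 6 and that of ZNF286A for 1. KRAB members had a median level of 4.04 RPKM and members with fingers alone a median of 5.83 RPKM, so domain and level move together among the members. The 4 members with KRAB and SCAN, ZNF263, ZNF274, ZNF394 and ZNF496, were not called. ZNF330 and ZNF740, in which the finger pattern was not found, and the SCAN proteins ZNF24 and ZNF232 made up the rest of the coding members. ZNF271P and ZNF542P, symbols of pseudogenes, did not pass. Scaled to library size alone, 4 KRAB members were higher and 21 lower, with a median of -0.15, and of the coding members without KRAB 7 were higher and 14 lower, with a median of -0.04, so that the sign of the latter median depends on the scaling. Of the 2250 tested genes from 3 to 5 RPKM, 258 were then higher and 548 lower. The difference between the domain classes was not tested.

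Of the members, 38 lie on chromosome 19, and 2 of these were higher and 11 lower, with a median log2 fold change of -0.10. Of the other 77, of which ZNF883 was not placed, 17 were higher and 16 lower, with a median of 0.07. Of the 850 tested genes of chromosome 19 without a ZNF symbol, 17.8% were higher and 14.8% lower, with a median of 0.02. Among KRAB members, 1 of 27 on chromosome 19 was higher and 9 were lower, with a median of -0.15. Among the 29 KRAB members elsewhere, 5 were higher and 6 lower, with a median of 0.07. Of the 11 chromosome 19 members without KRAB, 1 was higher, ZNF146, and 2 were lower. Members whose starts lay within 1 Mb of the next one were taken as neighbours, and 3 such groups were picked out after their values were seen. Between 51889224 and 53580269 of chromosome 19 lie 7 members, of which ZNF649, ZNF160, ZNF415 and ZNF331 fell and the other 3 did not pass. The median log2 fold change of these 7 was -0.29. Between 57535257 and 58277495, near the end of the long arm, lie 11 members, of which ZNF550, ZNF211 and ZNF417 fell and the other 8 did not pass, with a median of -0.20. In the group from 43607219 to 44178381, ZNF428 and ZNF226 fell and ZNF45, ZNF155 and ZNF224 did not pass, with a median of -0.04. Other groups with more than 1 member had fewer falls. Of 5 members between 55635016 and 56478065, ZNF580 fell (median 0.04). Of 2 between 36214602 and 36528660, ZNF146 rose (median 0.15). None of the 3 between 11721265 and 12633840 (median -0.08) or the 2 between 42068477 and 42228201 (median -0.16) was called. Of the falls in the 3 groups picked out, those of ZNF415 and ZNF550 lost their call in 5 of the 6 fits without a library, ZNF428 in 4, ZNF331 in 3 and ZNF417 in 2. ZNF160, ZNF331, ZNF649, ZNF417, ZNF211 and ZNF226 had means of 2.32, 2.51, 2.55, 2.85, 2.85 and 2.78 RPKM in circAASS cells. They reached the limit of 3 RPKM only through their vector level, so these falls are not free of the choice of members. The counts of falls on chromosome 19 include them. Under scaling to library size alone, 1 member on chromosome 19 was higher and 16 lower, and elsewhere 10 were higher and 19 lower, with medians of -0.18 and 0.00. Of the 850 tested genes of chromosome 19 without a ZNF symbol, 91 were then higher and 174 lower, with a median of -0.05. The counts of members are a description and were not tested against other places in the genome.

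**Figure D3:**
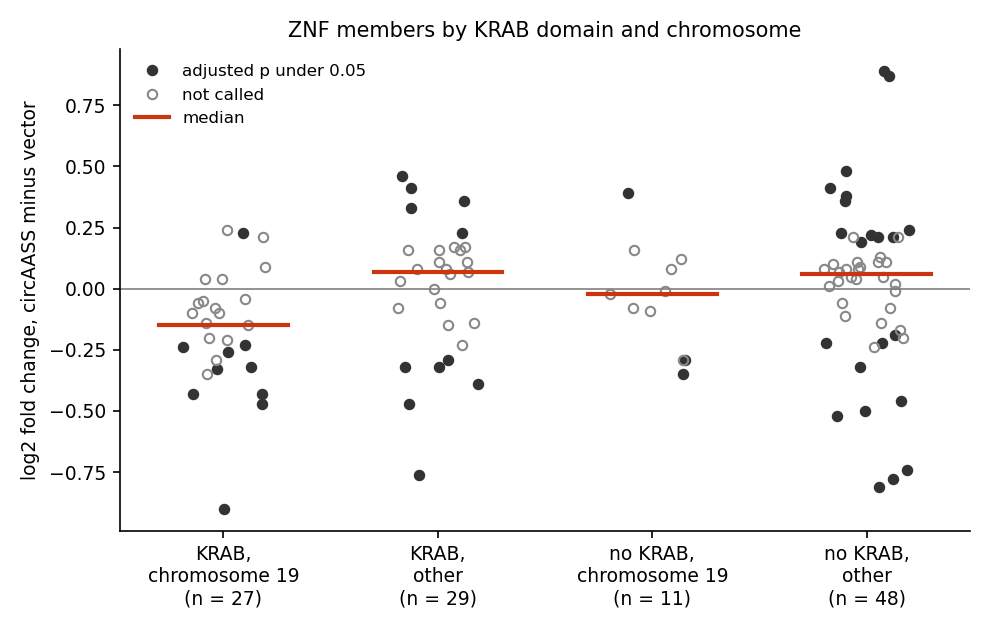
Log2 fold change of the members, split by KRAB domain and by chromosome 19. Each point is a gene, filled where called, and the red bar is the median. The medians are -0.15 and 0.07 for KRAB members on and off chromosome 19, and -0.02 and 0.06 for members without KRAB.

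Rises were a smaller share of the ZNF genes of low level, whereas the share of falls followed no order of level. Lower calls were 22.0% of ZNF genes below 1 RPKM, 26.6% from 1 to 3, 21.5% from 3 to 5, 22.9% from 5 to 10 and 33.3% of the 15 at 10 RPKM or more. Below 3 RPKM in all they were 24.3%, beside 23.5% in the members. Of 366 tested ZNF genes below 3 RPKM, 8 were higher and 89 lower, with a median log2 fold change of -0.19. Of the tested genes of all names below 3 RPKM, 7.7% were higher and 16.4% lower, with a median of -0.10. From 3 to 5 RPKM, 7 of 65 members were higher and 14 lower, while 17.8% of tested genes of that level were higher and 18.5% lower. From 5 to 10 RPKM, 8 of 35 members were higher and 8 lower, beside 24.6% and 16.5% of tested genes. At 10 RPKM or more, 4 of 15 members were higher and 5 lower, beside 33.6% and 13.1%. When scaled to library size alone, these 3 groups of members had 6 higher and 22 lower, 3 higher and 8 lower, and 2 higher and 5 lower. The tested genes of these levels then had 258 higher and 548 lower of 2250, 388 and 584 of 2564, and 904 and 771 of 3955. Higher calls in the fit as reported thus took a larger share with level both in ZNF genes and in all tested genes. The members just inside the limit were ZNF41 at 3.00, ZNF766 at 3.01 and ZNF331 at 3.05 RPKM. Just outside were ZNF783 at 2.99, ZNF814 at 2.93 and ZNF304 at 2.92 RPKM. In 14 members the mean of 1 group was under 3 RPKM, and of these 2 were higher and 7 lower. The 7 were ZNF160, ZNF211, ZNF226, ZNF331, ZNF417, ZNF618 and ZNF649, and all but ZNF618 are KRAB genes of chromosome 19. Of the 101 members with a mean of at least 3 RPKM in both groups, 17 were higher and 20 lower.

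**Figure D4:**
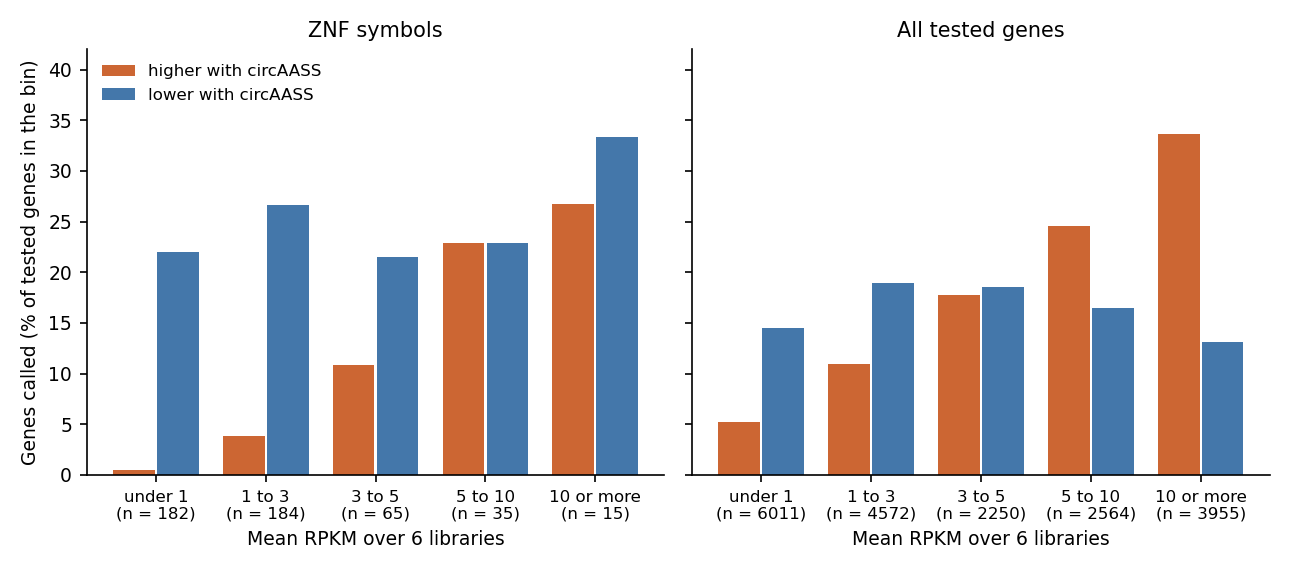
Share of tested genes called higher (orange) or lower (blue) with circAASS in bins of mean RPKM, on the left for ZNF symbols and on the right for all tested genes, with the number of genes under each bin. Below 1 RPKM, 0.5% of ZNF genes were higher and 22.0% lower, beside 5.2% and 14.5% of all tested genes.

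Related families were described in the same way. Of 38 tested ZBTB genes, which join fingers to a BTB domain, 9 were higher and 3 lower, and at or above 3 RPKM 8 of 15 were higher and 7 did not pass, and the median of their log2 fold changes was 0.26. All tested genes of that level had 26.9% higher and 15.5% lower, with a median of 0.07. Of 16 tested ZSCAN genes, 1 was higher and 7 lower, with a median of -0.22. Of 17 ZFP genes, 3 were higher and 5 lower, and of 6 ZKSCAN genes 1 was higher and 2 were lower. Over tested genes of any level, 16.4% were higher and 16.0% lower, with a median of -0.01. With scaling to library size alone, 7 ZBTB genes were higher and 6 lower, 1 ZSCAN gene higher and 7 lower, and 6 ZFP genes and 3 ZKSCAN genes lower. Of the 15 ZBTB genes at or above 3 RPKM, 6 were then higher. Of all 19352 tested genes, 2158 were then higher and 4022 lower, and of the 8769 at or above 3 RPKM, 1550 and 1903.

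Genes through which KRAB proteins silence chromatin were called in both directions, about as often as other genes of their level. In the list of 15, 4 genes rose, 2 fell and 9 missed the threshold. The median log2 fold change was 0.11. Of the tested genes at or above 3 RPKM, 42.4% passed in either direction. SETDB1, the methyltransferase that TRIM28 recruits, had 4.13, 4.86 and 4.15 RPKM in vector cells and 2.97, 2.76 and 3.11 RPKM in circAASS cells. It fell by 0.48 on the log2 scale (SE 0.09, adjusted p = 0.00666), without overlap between the groups. CBX5, the heterochromatin protein HP1 alpha, fell from 20.8 ± 0.505 to 16.8 ± 0.926 RPKM. The other 2 HP1 genes of the list were more abundant and did not fall. CBX3 rose from 123 ± 5.74 to 136 ± 4.73 RPKM (log2 fold change 0.23), and CBX1 did not pass, at 216 ± 3.27 and 213 ± 10.2 RPKM. ATF7IP, the binding partner of SETDB1, rose from 3.99 ± 0.124 to 4.67 ± 0.346 RPKM, and MORC2 from 9.02 ± 0.243 to 10.1 ± 0.252 RPKM, with 25.8% of the exon bases of MORC2 covered by other genes. TRIM28 itself was at 25.9, 26.3 and 27.1 RPKM and 26.3, 30.2 and 29.9 RPKM, with a rise of 0.20. The rise of TRIM28 lost its call without 5 of the 6 libraries in turn, that of ATF7IP without 3, that of CBX3 without 2 and the fall of CBX5 without 1. Scaled to library size alone, 3 genes of this list were called, 1 higher and 2 lower. Of the 8769 tested genes at or above 3 RPKM, 1550 were then higher and 1903 lower.

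Among 19 corepressor genes, whose products other zinc-finger proteins bind, 8 rose, 1 fell and 10 did not pass, with a median log2 fold change of 0.14. Of the tested genes at or above 3 RPKM, 26.9% were higher and 15.5% lower, with a median of 0.07. MBD2, a reader of methylated DNA, rose from 19.4 ± 0.657 to 24.0 ± 0.492 RPKM (log2 fold change 0.38). MTA2, a subunit of the NuRD complex, rose from 9.46 ± 0.123 to 11.4 ± 0.312 RPKM (0.34). CTBP2 rose from 9.93 ± 0.115 to 12.0 ± 1.10 RPKM (0.35), with 34.7% of its exon bases covered by other genes. KDM1A, a histone demethylase, rose from 39.1 ± 1.36 to 42.7 ± 1.32 RPKM (0.20), a call lost without 4 of the 6 libraries in turn. With scaling to library size alone 3 were higher and 1 lower, beside 1550 and 1903 of the 8769 tested genes at or above 3 RPKM.

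The 69 members that did not pass had log2 fold changes between -0.35 and 0.24, and in 22 of them (31.9%) the groups did not overlap, beside 26.2% of the tested genes at or above 3 RPKM that did not pass. Under scaling to library size alone, 8 of them were called lower, namely ZNF3, ZNF587, ZNF544, ZNF343, ZNF827, ZNF526, ZNF766 and ZNF135. The 8 rises lost with that scaling were ZNF692, ZNF317, ZNF207, ZNF41, ZNF326, ZNF277, ZNF622 and ZNF598. With median-of-ratios factors, 1 more member, ZNF155, was called higher. No member was called higher with 1 of these 3 scalings and lower with another.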

How the data were processed

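RNA was measured in HK-2 cells that carried empty vector (3 libraries) or the circAASS plasmid (3 libraries), grouped by the sample titles. Per the labels' protocols, libraries came from a stranded mRNA kit and were sequenced as read pairs. The design text gives 24 h after hypoxia and reperfusion, the labels 12 h of reoxygenation, and the labels' time was taken. The authors deposited RPKM for 35035 genes, and every column belonged to a library. Per the submitters' processing notes, the tools and build were Trimmomatic 0.36, featureCounts, Subread 1.5.1, edgeR 3.12.1 and GRCh38. Aligner, annotation and use of strand: not given in the sources used here. Reads of overlapping or near-identical genes are therefore uncertain. Names of 28 genes had become dates and were left out.

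Whole reads were worked out with exon lengths of GENCODE 29: values of 22385 of 24697 genes with a unique name (90.6%) were whole in all 6 libraries within 0.02 reads. Of the members, 109 had this length and 6 a length found from the values. Among read numbers of 1 to 20, 78.6% were even, so mates were mostly counted apart. No count model was used. RPKM were scaled by trimmed-mean factors of 0.954 to 1.043 from these reads, with 30% of the ratios and 5% of the levels left out. Group differences in log2(RPKM + 0.1) were tested with limma 3.58.1 in R 4.3.3, using a trended and robust prior, in the 19352 genes that reached 10 reads in 3 or more libraries, scaled to the median library, and 15 reads in total. P-values are two-sided, adjusted by Benjamini-Hochberg over all tested genes, with a threshold of 0.05. The fit was tested on simulated data. Means ± SD are of deposited RPKM, n = 3.

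The members, lists and motifs were chosen with earlier results of these data known. Values of some listed genes are left out of the text. Members named are the 8 largest rises and falls among called members with separate groups, the 5 rises and 5 falls of smallest p, the 6 highest levels, the 3 genes on each side of the limit, the role groups, up to 4 genes of each list, and members whose call changed with the scaling; other names were chosen after their values were seen. Domain classes were planned from RefSeq proteins and were read from the longest open reading frames of GENCODE 29 transcripts instead, with profiles made from 279 KRAB and 35 SCAN sequences (pyhmmer 0.12.3, E-value under 1e-05). Exon overlap and shared stretches of 100 bases were counted in GENCODE 29. Python 3.11.15, numpy 2.4.6, pandas 2.3.3 and matplotlib 3.10.9 were used. Alternatives covered the pseudocount, scaling, filter, prior, weights, replicate block, level limit and each library left out.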

Additional observations from a re-analysis of the deposited data

How the results depend on the processing

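With scaling to library size alone, 11 members were higher and 35 lower, and their median log2 fold change was -0.08. Of all 19352 tested genes, 2158 were then higher and 4022 lower, also with a median of -0.08. Without the filter on low values, 12 were higher and 16 lower. With a limit of 2 RPKM, 25 were higher and 47 lower, and the median was -0.02. With a limit of 5 RPKM, 12 were higher and 13 lower, with a median of 0.08. When each library was left out in turn, 11 to 16 were higher and 16 to 24 lower, and the median ran from -0.02 to 0.02. The fewest rises, 11, came without vector replicate 2 or vector replicate 3. The fewest falls were 16 without vector replicate 2 and 17 without circAASS replicate 3. Precision weights on recovered reads gave 25 higher and 34 lower. The cause of these shifts was not tested, but each fit without a library has fewer samples. Of the 46 called members, 22 kept their call and direction in all 14 alternative fits, 24 lost the call in at least 1, and none reversed. Of the 35 called genes that the stated rule names, which are members and genes of the repression and corepressor lists, 19 kept it in all 14, 16 lost it in at least 1, and none reversed. Other called genes in the text that are not members are outside these counts. The sign turned in genes that had not passed: with library size alone ZNF282 had 0.00, ZNF330 -0.03 and ZNF384 -0.05, without circAASS replicate 1 ZNF330 and ZNF384 had -0.02 each, without vector replicate 3 ZNF593 had -0.03, and without circAASS replicate 2 ZNF768 had 0.07. With each library left out, these 4 genes ranged from -0.02 to 0.14 (ZNF330), -0.02 to 0.10 (ZNF384), -0.03 to 0.25 (ZNF593) and -0.18 to 0.07 (ZNF768).

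For the repression and corepressor lists the same alternatives were added after seeing the data. Of the repression list, 6 genes changed in the fit as reported, 3 with library size alone and 3 to 6 with a library left out. Of the corepressor list, 9 changed, and 4 with library size alone, 5 without the filter, 4 without trend and robust prior, and 3 to 6 with a library left out. With the replicate block, 14 members were higher, 23 lower and 4 corepressor genes changed. Same-numbered libraries of the 2 groups deviated with correlations of 0.03, -0.07 and -0.01, so no pairing by number was seen. Deviations from a mean of 3 libraries are tied to each other, so these values cannot decide whether the numbers pair the samples. A library of the other group with another number correlated better with several libraries, at up to 0.13.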
